A study of Mus musculus with 4 samples.

Results

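Interferon-gamma CD4 T cells were the CD4 T cells with at least 1 unique molecular identifier (UMI, the tag that counts an original RNA molecule) of Ifng. They were taken from a CD4 gate of barcodes with at least 500 genes, at most 10% mitochondrial UMIs, at least 1 UMI of Cd3d, Cd3e or Cd3g, at least 1 of Cd4 and none of Cd8a or Cd8b1. The gate also allowed at most 3 UMIs of the macrophage genes Lyz2, C1qa, C1qb and Csf1r and none of Foxp3, Il4, Il5 or Il13. This gave 850 Ifng cells of 21855 barcodes, 677 in the Tc9 library and 173 in the Tc1 library. The other 3129 cells of the same gate had 0 Ifng UMIs, 2353 in Tc9 and 776 in Tc1, and are called Ifng=0 cells. Ifng itself chose the cells, so its values below describe them and compare nothing.

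Interferon-gamma is the signature cytokine of type 1 helper (Th1) cells. It activates macrophages and raises the antigen presentation machinery of the cells around it. The Th1 state is set by the transcription factor T-bet (gene Tbx21) and kept up by interleukin-12, which acts through the receptor chain Il12rb2 and the signal protein Stat4. T-bet also turns on Cxcr3, the receptor for chemokines that are themselves made in response to interferon-gamma.

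The samples, labelled as sorted tumour CD4 T cells, came from 2 groups of wild-type B6 mice of the Thy1.2 type, 30 days after a chimeric tumour was inoculated. Each mouse had been given Pmel-1 CD8 T cells of the Thy1.1 type, whose transgenic receptor sees the melanocyte protein gp100, grown either as Tc9 cells (the interleukin-9 type) or as Tc1 cells (the interferon-gamma type), in both cases with an adjuvant. The transferred cells were CD8 T cells, so the CD4 T cells described here were taken as those of the host. The gate used neither the Thy1 type nor the transgenic receptor. A transferred cell with a Cd4 UMI and no Cd8a or Cd8b1 UMI could therefore have passed it. Tumours of 3 mice made up each pool, sequenced as 1 RNA and 1 T cell receptor (TCR) library, so there was no replicate, no untreated group and no test. All intervals are 95% intervals of counting error, and those of ratios take every UMI as independent of the others in its cell, so they are too tight where few cells hold most of a gene's UMIs. The transfer and the library cannot be told apart.

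The libraries held 8449 barcodes with 50713493 UMIs in Tc9 and 13406 barcodes with 106053410 UMIs in Tc1. The content went against the label, above all in Tc1: of the kept barcodes, 8204 in Tc9 and 11933 in Tc1, those with Cd3 and Cd4 numbered 4768 in Tc9 and 2345 in Tc1, myeloid barcodes without Cd3 24 and 2908, and CD8 T cells 454 and 2010. The CD4 gate took 36.9% of the kept barcodes in Tc9 and 7.95% in Tc1. The Ifng cells had a median of 5515 UMIs in Tc9 and 3483 in Tc1, against 5158 in Ifng=0 cells of Tc9 and 3293 in those of Tc1. The RNA libraries shared 148 barcodes, and 7 Ifng cells had a barcode that was also kept in the other library, none of them an Ifng cell there. Summed over the 12 macrophage markers, Ifng cells held 133 CPM (the gene's UMIs scaled to the same total in each set of cells) in Tc9 and 1012 CPM in Tc1, against 125 CPM in Ifng=0 cells of Tc9 and 857 CPM in those of Tc1, so Tc1 carried more macrophage RNA in both sets of cells. Markers of NK cells summed to 27.2 CPM in Ifng cells of Tc9 and 42.8 CPM in those of Tc1, against 8.54 and 17.6 CPM in the Ifng=0 cells of Tc9 and Tc1, and neutrophil markers were at 0 in the Tc9 Ifng cells. B cell and gamma-delta T cell markers summed to at most 32 CPM in the Ifng cells of either library, with Ms4a1 and Jchain at 0 in both. Melanoma markers summed to 1.43 CPM in Tc9 and 159 CPM in Tc1 Ifng cells, and red cell markers to 0.716 and 1213 CPM, of which 1 Tc1 cell held 93.1%.

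The receptors tie single Ifng cells to named T cell clones, and the clonotypes with the most Ifng cells are shown by their CDR3 DNA, the loop that touches antigen, with the conserved first and last codons in capitals. A clonotype was an identical pair of alpha (TRA, chromosome 14) and beta (TRB, chromosome 6) nucleotide CDR3 with V and J genes.
Tc9 clonotype 1, TRA: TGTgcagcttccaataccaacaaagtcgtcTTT
Tc9 clonotype 1, TRB: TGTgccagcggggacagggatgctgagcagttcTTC
Tc9 clonotype 2, TRA: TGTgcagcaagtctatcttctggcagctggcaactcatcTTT
Tc9 clonotype 2, TRB: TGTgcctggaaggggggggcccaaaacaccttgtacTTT
Tc9 clonotype 3, TRA: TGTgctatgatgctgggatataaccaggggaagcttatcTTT
Tc9 clonotype 3, TRB: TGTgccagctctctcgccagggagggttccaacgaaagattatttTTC
Tc1 clonotype 1, TRA: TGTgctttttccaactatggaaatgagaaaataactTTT
Tc1 clonotype 1, TRB: TGTgccagcagcttaaaagaagtcttcTTT
Tc1 clonotype 2, TRA: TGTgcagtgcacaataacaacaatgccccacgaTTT
Tc1 clonotype 2, TRB: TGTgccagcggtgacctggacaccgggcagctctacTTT
Tc9 clonotype 1 used TRAV7-4 with TRAJ34 and a TRB chain called as TRBV12-2+TRBV13-2 with TRBJ2-1, Tc9 clonotype 2 used TRAV7D-2 with TRAJ22 and TRBV31 with TRBJ2-4, and Tc9 clonotype 3 used TRAV16D-DV11 with TRAJ23 and TRBV12-1 with TRBJ1-4. Tc1 clonotype 1 used TRAV6-7-DV9 with TRAJ48 and TRBV3 with TRBJ1-1, and Tc1 clonotype 2 used TRAV7-3 with TRAJ43 and a chain called as TRBV12-2+TRBV13-2 with TRBJ2-2. None of these pairs was found in the other library.

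Ifng UMIs per cell were low in both libraries. The 677 Tc9 cells held 1458 Ifng UMIs and the 173 Tc1 cells held 386, with a median of 1 per cell in each and a maximum of 26 in Tc9 and 23 in Tc1. Cells with 1 Ifng UMI, just inside the threshold, made up 55.2% (51.4 to 59.0) of the Tc9 cells and 57.2% (49.5 to 64.7) of the Tc1 cells, and cells with 6 or more made up 5.76% and 6.94%. A few cells held much of the message, since the top 68 Tc9 cells held 32% of the Ifng UMIs and the top 17 Tc1 cells 34.5%. Over all their RNA the Ifng level was 348 CPM in Tc9 and 486 CPM in Tc1.

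Ifng was found in 22.3% of the CD4 gate in Tc9 (677 of 3030, 20.9 to 23.9) and in 18.2% in Tc1 (173 of 949, 15.8 to 20.8). Tc9 was thus 4.11 points above Tc1 (1.12 to 6.96). When every cell was thinned to 2000 UMIs the shares were 12.6% in Tc9 (369 of 2938) and 13.3% in Tc1 (114 of 857), and Tc9 minus Tc1 was -0.74 points (-3.47 to 1.79), with 92 shallower cells left out of each library. At equal depth the libraries had no order beyond counting error. Cells with a UMI of the naive T cell genes Ccr7 or Lef1 made up 39.1% of the Ifng=0 cells of Tc9 and 50% of those of Tc1, and without such cells the difference was -1.34 points at full depth. With at least 2 Cd4 UMIs per cell it was 0.776 points.

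The Tc1 share stood above that of barcodes that should lack Ifng, while Tc9 had too few such barcodes to tell. In myeloid barcodes without a Cd3 UMI, which should not make Ifng, 9 of 2664 Tc1 barcodes (0.338%) had an Ifng UMI at the same 2000 UMIs. Before thinning, 0.860% did, at a median of 7361 UMIs against 3314 in the Tc1 gate. In Tc9 1 of 16 such barcodes had Ifng at 2000 UMIs (6.25%, 0.158 to 30.2), an interval that holds the 12.6% of the Tc9 gate. At 2000 UMIs CD8 T cells had Ifng in 11.3% of cells in Tc9 and 20.8% in Tc1, and CD4 T cells with Il4, Il5 or Il13 in 7.01% and 11.2%. CD4 T cells with Foxp3, the regulatory T cell factor, were at 3.27% in Tc9 and 3.20% in Tc1.

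**Figure D1:**
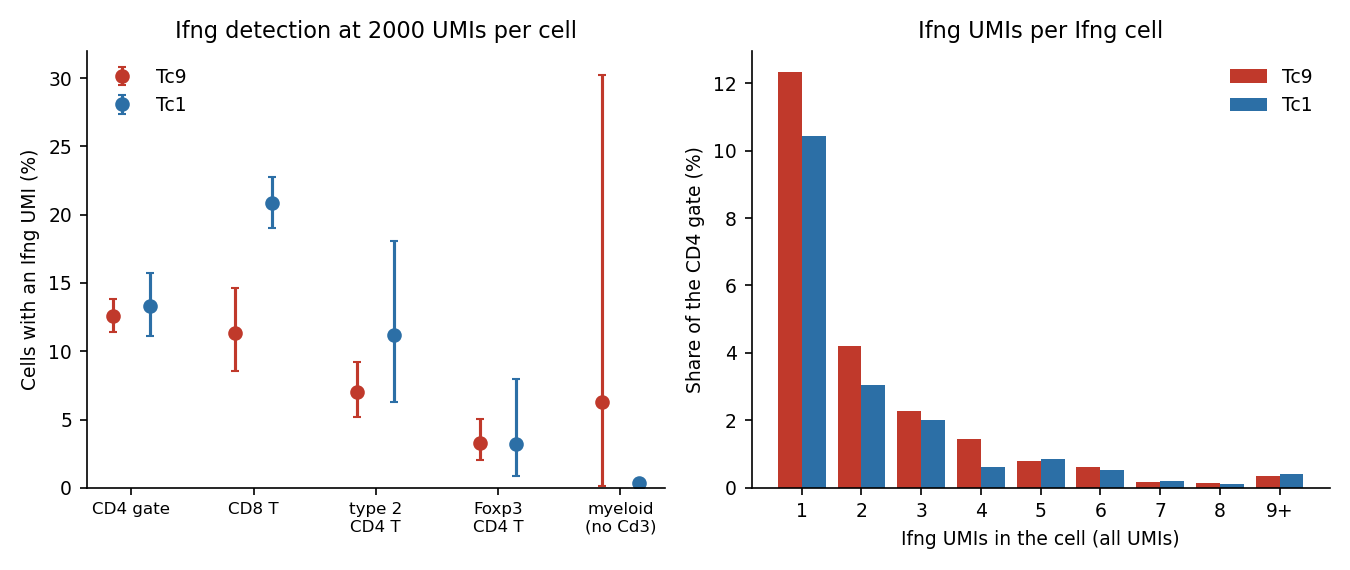
Left, the share of cells with an Ifng UMI (percent, 95% exact intervals) after thinning each cell to 2000 UMIs, in the CD4 gate and 4 other sets of barcodes, Tc9 in red and Tc1 in blue. Right, the share of the CD4 gate (percent) by Ifng UMIs in the cell at full depth; the gate stands at 12.6% in Tc9 and 13.3% in Tc1 on the left, and most bars on the right lie at 1 UMI.

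The Th1 markers of the label bore it out in part. At 2000 UMIs Tbx21 was found in 24.7% of Ifng cells (21.4 to 28.1) against 13.5% of Ifng=0 cells (12.1 to 15) in Tc9, and in 35.4% (28 to 43.4) against 20.6% (17.7 to 23.8) in Tc1. Il12rb2 was found in 14.4% of Ifng cells against 4.18% of Ifng=0 cells in Tc9, and in 15.8% against 5.44% in Tc1. Both markers thus separated the sets in each library, and in Tc1 myeloid barcodes they were at 0.225% and 0.638%. Cxcr3 was found in 24.4% of Ifng cells against 15.4% of Ifng=0 cells in Tc9, and in 36.1% (28.6 to 44.1) against 27.5% (24.2 to 30.9) in Tc1, where the intervals overlap. By level, Cxcr3 was 0.55 log2 units higher in Ifng cells of Tc9 and 0.52 in those of Tc1, under the 1.5-fold counted as higher. Many Ifng cells showed no marker at this depth. At full depth 47.1% of the Tc9 Ifng cells and 52.6% of the Tc1 Ifng cells had a Tbx21 UMI.

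**Figure D2:**
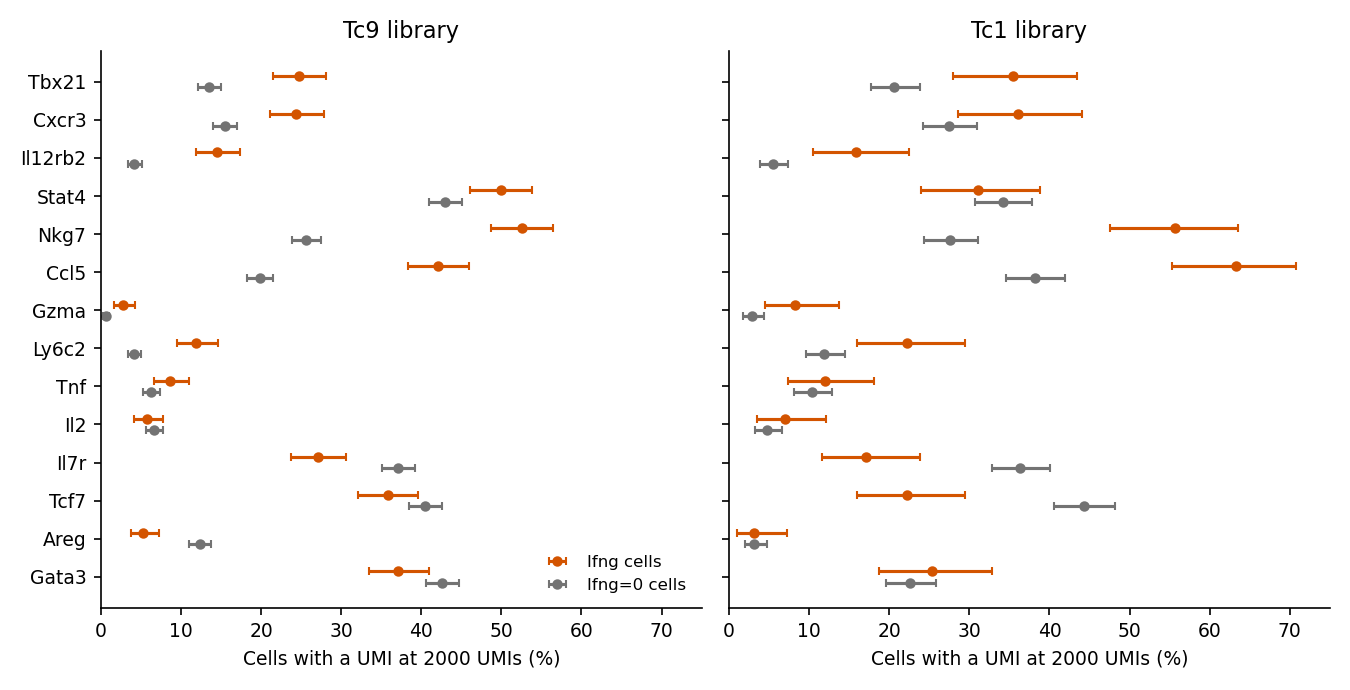
Share of cells with a UMI of each gene (percent, 95% exact intervals) after thinning to 2000 UMIs, Ifng cells in orange and Ifng=0 cells in grey, Tc9 on the left and Tc1 on the right. Nkg7, Ccl5, Tbx21 and Il12rb2 stand apart in both libraries, while Tnf and Il2 lie close. Stat4 is slightly higher in Ifng cells of Tc9 and lies close in Tc1, Areg stands apart in Tc9 and Il7r most in Tc1.

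Compared with Ifng=0 cells of the same library, Ifng cells carried a small set of genes that were higher in both libraries. Among them were the chemokine Ccl5, the cytotoxic granule gene Nkg7 and T-bet, each at 50 CPM or more in both sets of cells. The interleukin-12 receptor chain Il12rb2 was higher too, but reached 50 CPM only in the Ifng cells. In the Tc9 library 23 of 3047 genes were at least 1.5-fold higher (0.755%) and 37 at least 1.5-fold lower (1.21%), together 1.97%. In the Tc1 library 264 of 3498 were higher (7.55%) and 171 lower (4.89%), together 12.4%. The higher genes were 60.7% of those past 1.5-fold in Tc1, and 48.0% once ratios were centred on the median gene. Of 2849 genes at 50 CPM or more in both libraries, 15 were higher in both (0.527%) and 9 lower in both (0.316%). A gene needed 50 CPM in only 1 of the sets, so a gene that reached it only where it is high had to differ. Of the 15, those with it only in Ifng cells included Il12rb2, Tigit, Mki67, Top2a, Serpinb9 and Cd7 in both libraries and Gzma and Ly6c2 in Tc9. Of the 9, Epas1 and Gm20186 reached it only in the Ifng=0 cells in both libraries, as did Adk in Tc9. The median log2 ratio over all genes was 0.03 in Tc9 and 0.07 in Tc1. On GRCm38 the genes lie at chr6:67285986-67376293 (Il12rb2, ENSMUSG00000018341), chr7:43437138-43438246 (Nkg7, ENSMUSG00000004612), chr11:83525778-83530518 (Ccl5, ENSMUSG00000035042) and chr11:97098007-97115331 (Tbx21, ENSMUSG00000001444). The Tc1 sets were smaller, with 793683 UMIs in its Ifng cells against 4189359 in those of Tc9, so its ratios scatter more.

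Il12rb2, the chain that lets a cell respond to interleukin-12, had 98.3 CPM in Ifng cells against 34.9 CPM in Ifng=0 cells of Tc9, and 103 CPM against 37.0 CPM in Tc1. It was 2.82-fold higher in Tc9 (log2 1.49, 1.30 to 1.69) and 2.80-fold higher in Tc1 (1.48, 1.05 to 1.91). Tbx21 had 133 against 79.4 CPM in Tc9 (log2 0.74, 0.59 to 0.89) and 232 against 115 CPM in Tc1 (1.02, 0.75 to 1.28). Stat4, the signal protein below the interleukin-12 receptor, had 376 against 326 CPM in Tc9 and 204 against 210 CPM in Tc1, with log2 ratios of 0.20 and -0.04. The receptor chain and T-bet were thus past 1.5-fold in both libraries and the signal protein in neither. After thinning, Stat4 was found in 49.9% (46.1 to 53.8) of Tc9 Ifng cells against 43.0% (40.9 to 45.0) of Tc9 Ifng=0 cells. Stat4 was thus slightly higher in Tc9. In Tc1 it was found in 31.0% (23.9 to 38.8) against 34.2% (30.7 to 37.8), where the intervals overlap. Of the list of Th1 regulators Tbx21 was the 1 higher of 9 in Tc9, and Tbx21 and Zeb2 were the 2 higher of 10 in Tc1. Among Th1 cytokine receptors, the interleukin-18 receptor chain Il18rap was 0.45 and 0.56 log2 units higher in Tc9 and Tc1 and Il2rb, a chain of the interleukin-2 and interleukin-15 receptors, 0.32 and 0.75.

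Nkg7, a granule membrane protein of cytotoxic cells, had 585 against 246 CPM in Tc9 (log2 1.25, 1.17 to 1.33) and 890 against 300 CPM in Tc1 (1.57, 1.43 to 1.71). At 2000 UMIs it was found in 52.6% of Ifng cells against 25.6% of Ifng=0 cells in Tc9 and in 55.7% against 27.6% in Tc1. Ccl5, a chemokine that draws T cells and monocytes, had 1301 against 460 CPM in Tc9 (log2 1.5, 1.45 to 1.55) and 3154 against 1063 CPM in Tc1 (1.57, 1.49 to 1.64). Its share at 2000 UMIs was 42.1% of Ifng cells against 19.8% of Ifng=0 cells in Tc9, and 63.3% against 38.2% in Tc1, with 11.4% in Tc1 myeloid barcodes. Neither gene took part in the choice of the cells.

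The remaining genes higher in both libraries belong to several functions. Serpinb9, an inhibitor that guards a cell against its own granzyme B, was 0.90 log2 units higher in Tc9 and 0.93 in Tc1, where 1 cell held 32.8% of its UMIs and the ratio without it was 0.38. Itga1, a collagen-binding integrin of tissue T cells, was 0.71 and 0.84 higher, and Hopx, a homeodomain protein of effector Th1 cells, 0.69 and 0.97. Dusp2, a phosphatase induced by receptor signals, had 843 against 485 CPM in Tc9 and 543 against 339 CPM in Tc1. Cd7, a surface glycoprotein of T and NK cells, was 0.71 and 1.33 higher, but its Tc1 ratio was 0.79 without its richest cell and -0.041 in cells with 0 macrophage UMIs. Gimap7 was 0.75 and 0.65 higher. The inhibitory receptor Tigit was 0.71 higher in Tc9 and 0.62 in Tc1, where it passed 1.5-fold in 8 of 19 settings of the processing and was at 0.44 without its richest cell. Ly6c2, a surface marker of effector T cells and of monocytes, was 1.96 and 1.22 higher, but at 2000 UMIs it was found in 37.4% of Tc1 myeloid barcodes against 22.2% of the Tc1 Ifng cells, and the part of free RNA in the Tc1 value was not tested. Mki67 and Top2a, both of the cell cycle, complete the 15. In both libraries Serpinb9, Cd7, Tigit, Mki67 and Top2a reached 50 CPM only in the Ifng cells, as did Ly6c2 in Tc9. Their direction there is no result.

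Gzma, a granzyme, had the largest ratio, and it rested on few cells. It had 137 against 16.8 CPM in Tc9 (log2 3.03) and 393 against 68.6 CPM in Tc1 (2.52), yet only 25 of 677 Ifng cells in Tc9 and 15 of 173 in Tc1 had a UMI. The single richest cell held 37.7% of its UMIs in the Tc9 Ifng cells and 37.2% in the Tc1 Ifng cells. Without that cell the ratios were 2.36 in Tc9 and 1.86 in Tc1, without cells with a Mki67 or Top2a UMI the Tc9 ratio was 1.20, and with 0 macrophage UMIs the Tc1 ratio was 5.34. Barcodes without Cd3 held 404 CPM of it in Tc9 and 18.3 CPM in Tc1, and their part was not tested. Without cells with a Ccr7 or Lef1 UMI, its Tc1 ratio was -0.49. Removing those cells left 112 Ifng and 388 Ifng=0 cells in Tc1, and the Tc1 ratios were then 0.38 for Tbx21, 0.044 for Ly6c2, 0.36 for Itga1, 0.29 for Hopx and 0.41 for Dusp2, all under 1.5-fold. Ccl5, at 0.59, lay just past 1.5-fold, and Il12rb2 was at 0.75 and Nkg7 at 0.87. In Tc9 the same step left Tbx21 and Ccl5 above 1.5-fold.

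**Figure D3:**
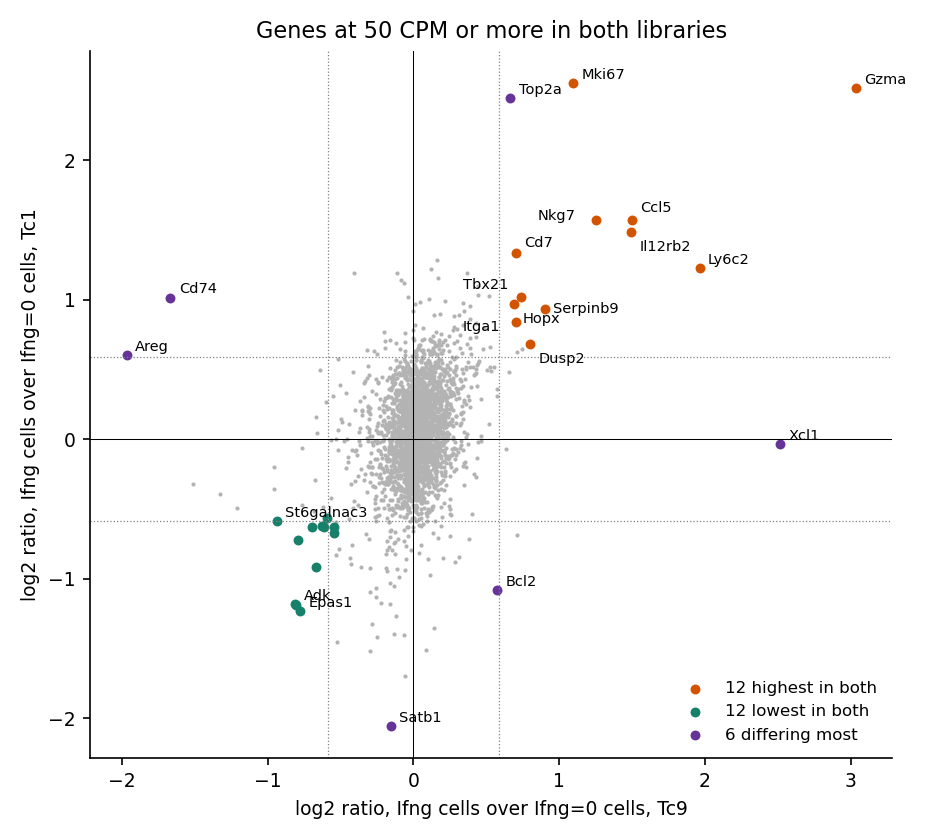
Each point is a gene at 50 CPM or more in both libraries, with its log2 ratio of Ifng cells over Ifng=0 cells in Tc9 (x axis) and in Tc1 (y axis); dotted lines mark 1.5-fold. Orange points are the 12 genes highest in both, green points the 12 lowest in both and violet points the 6 whose ratios differ most; Gzma, Ccl5, Il12rb2, Nkg7 and Ly6c2 lie far out on the upper right.

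The genes lower in both libraries were fewer and the ratios smaller. Adk, adenosine kinase, had 47.3 against 82.8 CPM in Tc9 (log2 -0.81) and 58.0 against 132 CPM in Tc1 (-1.19), and Ramp3, a partner of calcitonin-family receptors, had 51.6 against 90.3 CPM in Tc9 and 60.5 against 138 CPM in Tc1. Epas1, the hypoxia-inducible factor HIF-2-alpha, was at -0.78 in Tc9 and -1.23 in Tc1, and Hilpda, a lipid droplet gene induced by hypoxia, at -0.79 and -0.72. Tnfrsf4, the costimulatory receptor OX40, was at -0.62 and -0.63. The sialyltransferase St6galnac3 was at -0.94 and -0.59, Tmem64 at -0.67 and -0.92, Aff4, a transcription elongation factor, at -0.63 and -0.62 and Gm20186 at -0.70 and -0.63. Emb, Ero1l and Ldlrad4 followed, each short of 1.5-fold in 1 library. St6galnac3 kept 1.5-fold in Tc1 in 9 of 19 settings of the processing and Gm20186 and Tnfrsf4 in 12 of 19.

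As sequences, the 300 bases around the start of Ifng and of the 2 higher genes with a T-box core, the letters that T-bet binds, are shown from the RefSeq table of GRCm38.p6, 250 before and 50 after the start. Capitals mark the core GTGTGA or its reverse complement TCACAC, searched on both strands.
Ifng, chr10:118440796-118441095, plus strand: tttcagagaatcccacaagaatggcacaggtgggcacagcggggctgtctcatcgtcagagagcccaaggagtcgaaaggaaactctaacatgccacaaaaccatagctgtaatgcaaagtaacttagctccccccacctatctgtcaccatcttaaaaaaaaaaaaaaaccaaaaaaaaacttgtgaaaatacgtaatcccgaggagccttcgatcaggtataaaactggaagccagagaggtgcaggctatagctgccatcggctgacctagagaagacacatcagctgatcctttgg
Il12rb2, chr6:67376139-67376438, minus strand: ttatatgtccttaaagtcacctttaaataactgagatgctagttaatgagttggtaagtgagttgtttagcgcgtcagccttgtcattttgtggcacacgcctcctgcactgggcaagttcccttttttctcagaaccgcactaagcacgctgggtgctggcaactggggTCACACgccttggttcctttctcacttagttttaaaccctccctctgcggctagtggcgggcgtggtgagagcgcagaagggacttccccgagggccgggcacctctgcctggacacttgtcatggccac
Nkg7, chr7:43436888-43437187, plus strand: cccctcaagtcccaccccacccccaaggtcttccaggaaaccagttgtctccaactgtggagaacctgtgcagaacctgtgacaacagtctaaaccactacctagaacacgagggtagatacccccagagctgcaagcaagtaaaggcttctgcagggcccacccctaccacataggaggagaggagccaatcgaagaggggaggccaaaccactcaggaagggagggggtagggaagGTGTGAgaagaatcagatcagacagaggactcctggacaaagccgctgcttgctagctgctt
Of the 12 highest genes 10 had a promoter in the table and 2 of these held the core, Il12rb2 and Nkg7. Of the 12 lowest genes 7 had a promoter and 1, Emb, held it. The core occurs in 14.4% of the 27025 promoters of this length, and the Ifng window has none. The Il12rb2 window is set on a start inside the gene span given above, so its core lies within that span. The spaced STAT letters TTCNNNGAA were in the Ifng, Il12rb2 and Nkg7 windows and in 8.47% of all promoters, and they did not overlap the capitals.

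Lists are described here by their genes at 50 CPM or more in both sets of cells compared, since a gene that reached 50 CPM only in the set where it is high had to differ. Their counts stand beside the shares over all genes, 0.755% higher and 1.21% lower in Tc9 and 7.55% and 4.89% in Tc1. Of the cytotoxic list 2 of 4 such genes were higher in Tc9 (median log2 ratio 0.59) and 3 of 6 in Tc1 (0.76), and none was lower in either. A further 2 genes in Tc9 and 4 in Tc1 reached 50 CPM only in the Ifng cells. Fasl, the death ligand, had 89.3 against 56.6 CPM in Tc9 and 98.3 against 70.3 CPM in Tc1, and the cathepsin Ctsw was 0.52 and 1.03 higher. Gzmb, the main killing granzyme, differed little in Tc9, with 21.0 against 15.9 CPM, and had 116 against 23.0 CPM in Tc1, where 20 of 173 Ifng cells carried it. Perforin (Prf1) stayed at 7.40 CPM in Tc9 and 11.3 CPM in Tc1 Ifng cells, found in 17 and 5 cells. Without cells with a Ccr7 or Lef1 UMI, 2 of 6 such genes were higher in Tc1, with a median of 0.27.

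Ifng cells of Tc9 were lower in some genes of the type 2 programme, although the gate had already removed every cell with Il4, Il5 or Il13. Of 5 genes of the Th2-associated list at 50 CPM or more in both sets 2 were lower in Tc9 and none higher, with a median of -0.52, and after thinning 2 of 5 were lower, with a median of -0.37. A further 3 genes reached 50 CPM only in the Ifng=0 cells, so their direction is no result. Areg, the epidermal growth factor ligand amphiregulin, had 66.4 against 259 CPM (log2 -1.97, -2.15 to -1.79), and at 2000 UMIs it was found in 5.26% of Ifng cells against 12.4% of Ifng=0 cells. Il1rl1, the interleukin-33 receptor, had 65.6 against 187 CPM (-1.51). Of the genes at 50 CPM only in the Ifng=0 cells, Pparg, a lipid-sensing nuclear receptor, had 13.4 against 52.5 CPM (-1.97) and Cd200r1 35.8 against 60.8 CPM (-0.76). Gata3, the master factor of type 2 helper cells, had 237 against 339 CPM (-0.52), short of 1.5-fold. In Tc1 1 of 6 was higher and none lower, with a median of 0.19.

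Areg was the 1 higher in Tc1, with 79.4 against 52.3 CPM, but 1 of its 9 cells held 76.2% of the UMIs. Without that cell the Tc1 ratio was -1.46, on the same side as in Tc9. At 2000 UMIs Areg was found in 3.16% of Ifng cells and 3.15% of Ifng=0 cells of Tc1. The tumour necrosis factor family members Tnfsf8 and Tnfsf11 were also lower in Tc9, at -1.33 and -0.66, and the interleukin-2 receptor chain Il2ra at -0.83, against -0.39, 0.04 and 0.10 in Tc1. In Tc9 Il2ra reached 50 CPM only in the Ifng=0 cells.

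In Tc1 the Ifng cells were lower than the Ifng=0 cells in naive and memory genes. Of the 9 genes at 50 CPM or more in both sets 7 were lower in Tc1, with a median of -1.40, and none in Tc9, with a median of -0.06. In Tc1 4 further genes, Ccr7 among them, reached 50 CPM only in the Ifng=0 cells, so their direction is no result. Ccr7, the receptor for entry into lymph nodes, had 6.92 against 16.8 CPM in Tc9 and 7.56 against 150 CPM in Tc1. At full depth it was found in 2.31% of Tc1 Ifng cells against 22.6% of Tc1 Ifng=0 cells. Satb1, a chromatin organiser of naive cells, had 162 against 180 CPM in Tc9 (-0.15) and 90.7 against 377 CPM in Tc1 (-2.06), and Tcf7, a factor of naive and stem-like cells, had 240 against 292 CPM in Tc9 and 132 against 331 CPM in Tc1. Il7r, the survival receptor for interleukin-7, was at 214 against 308 CPM in Tc9 and 112 against 308 CPM in Tc1. Without cells with a Ccr7 or Lef1 UMI, 2 of 8 naive and memory genes were lower in Tc1, with a median of -0.23. Bcl2, a survival gene, was at 0.57 in Tc9 and -1.08 in Tc1, the Tc9 ratio just short of 1.5-fold.

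Of the cell cycle list only 2 genes reached 50 CPM in both sets of cells in each library. In Tc9 neither passed 1.5-fold (median 0.19) and in Tc1 both were higher (1.14). A further 2 genes in Tc9 and 12 in Tc1 reached 50 CPM only in the Ifng cells, so their direction is no result. Mki67, a marker of dividing cells, had 72.1 against 33.7 CPM in Tc9 and 209 against 35.6 CPM in Tc1. It was found in 61 of 677 Tc9 Ifng cells and 25 of 173 Tc1 Ifng cells, and 1 cell held 25.2% of its UMIs in Tc9 and 22.3% in Tc1. Cells with a UMI of Mki67 or Top2a made up 20.8% (17.8 to 24.1) of Ifng cells against 18.7% (17.2 to 20.4) of Ifng=0 cells in Tc9, and 26.0% (19.6 to 33.2) against 13.4% (11.1 to 16) in Tc1. When such cells were removed, 2 cell cycle genes were left at 50 CPM in each library and neither was higher.

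Other effector genes were few. Tnf, the second classical Th1 cytokine, had 48.2 against 37.7 CPM in Tc9 and 130 against 59.9 CPM in Tc1, where 1 cell held 26.2% of the UMIs and the log2 ratio without it was 0.69. At 2000 UMIs Tnf was found in 8.57% of Ifng cells against 6.25% of Ifng=0 cells in Tc9 and in 12% against 10.3% in Tc1, beside 14.8% of Tc1 myeloid barcodes. Myeloid cells make Tnf themselves, and the part of free RNA in the Tc1 values was not tested. Il2, the T cell growth factor, had 33.7 against 36.2 CPM in Tc9 and 30.2 against 29.3 CPM in Tc1. Tnf and Il2 were found together in 4 of 665 Ifng cells of Tc9 (0.602%) and 4 of 158 of Tc1 (2.53%), and 86.3% and 83.5% had neither. The inhibitory receptor Pdcd1 was close in both sets, at 25.5 against 23.5 CPM in Tc9 and 79.4 against 79.9 CPM in Tc1.

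Xcl1, a chemokine for cross-presenting dendritic cells, had 68.5 against 12 CPM in Tc9 (log2 2.52, 2.23 to 2.81) and 71.8 against 73.6 CPM in Tc1 (-0.04, -0.48 to 0.39). The Tc1 ratio lay between -0.96 with at least 2 Cd4 UMIs and 1.44 without cells with a Mki67 or Top2a UMI, and passed 1.5-fold in 5 of 19 settings, against 19 of 19 in Tc9. Xcl1 was found in 59 Tc9 Ifng cells, 1 of which held 23.0% of the UMIs, and in 21 Tc1 Ifng cells. In Tc9 it reached 50 CPM only in the Ifng cells. Barcodes without Cd3 held 826 CPM of Xcl1 and 340 CPM of the NK markers in Tc9, and their part in the Xcl1 ratio was not tested. Ccl4 was 0.73 higher in Tc9 and 2.17 in Tc1, but 1 Tc1 cell held 56.9% of its UMIs and 38.8% of Tc1 myeloid barcodes had it at 2000 UMIs. The class II chaperone Cd74 was at -1.67 in Tc9 and 1.01 in Tc1, and 1 Tc1 Ifng cell held 48.6% of it, without which the Tc1 ratio was 0.09. The 9 dendritic cell markers summed to 157 CPM in Ifng cells against 309 CPM in Ifng=0 cells in Tc9 and to 3719 against 1922 CPM in Tc1, with Ccl22 at 0 in the Ifng cells of both libraries. Their part in the Cd74 values was not tested.

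Of the list of genes that respond to interferon-gamma, 0 of 11 passed 1.5-fold in either direction in Tc9 and 0 of 12 in Tc1, with medians of 0.09 and 0.24. Over all genes 1.97% passed it in Tc9 and 12.4% in Tc1. Psmb8, an immunoproteasome subunit, had 348 against 318 CPM in Tc9 and 654 against 512 CPM in Tc1. The type I interferon list had 0 of 6 past 1.5-fold in Tc9 and 1 of 12 higher in Tc1, Irf7, and with 0 macrophage UMIs per cell 0 of 8 were higher and 2 lower. Glycolysis (10 genes in Tc9 and 13 in Tc1) and oxidative phosphorylation (19 and 20) had none past 1.5-fold. Of the receptor signal and activation list only Dusp2 was higher, 1 of 17 in Tc9 and 1 of 17 in Tc1.

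**Figure D4:**
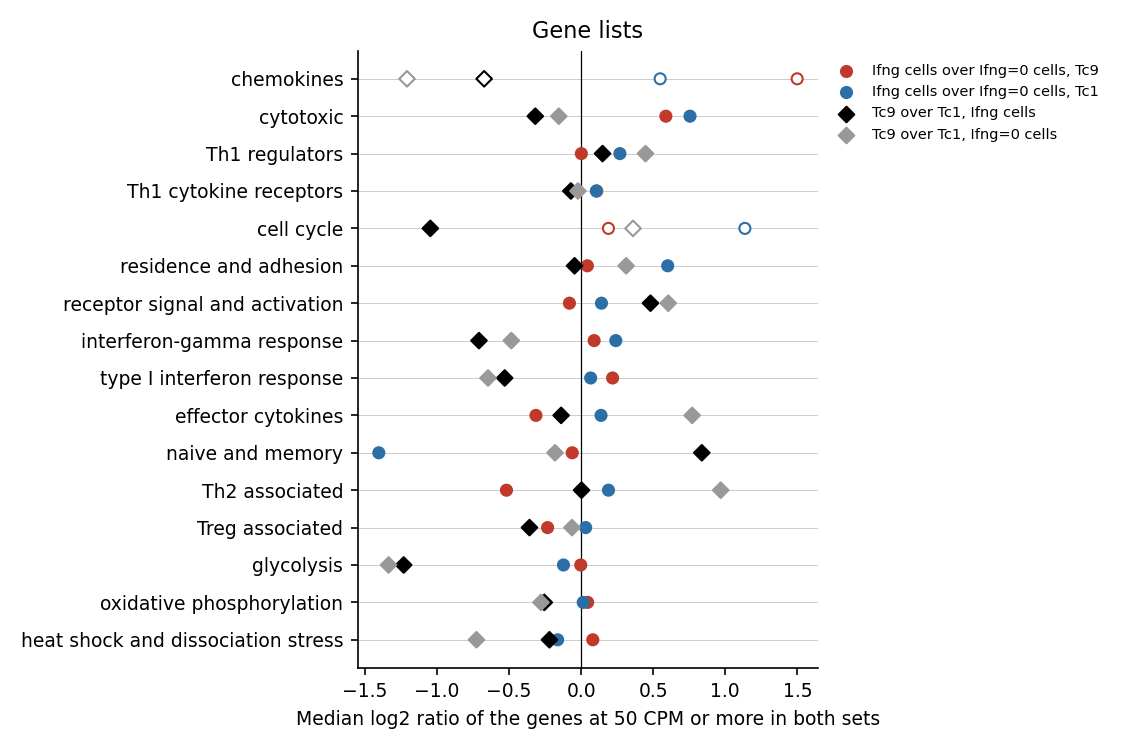
Median log2 ratio (x axis) of the genes at 50 CPM or more in both sets compared, of 16 gene lists (y axis), for Ifng cells over Ifng=0 cells in Tc9 (red) and Tc1 (blue) and for Tc9 over Tc1 in Ifng cells (black) and in Ifng=0 cells (grey). Open symbols are medians of fewer than 4 genes, such as chemokines and, within each library, cell cycle (2 genes); of the filled ones within a library, naive and memory genes lie lowest in Tc1 (-1.40) and the Th2-associated list in Tc9 (-0.52).

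By the number of Ifng UMIs in the cell, Il12rb2 and Ccl5 were higher and Il7r lower with more of them, while Gzma and Tbx21 in Tc9 had no such order. Il12rb2 was at 34.9, 86.1, 96.3 and 191 CPM in Tc9 cells with 0, 1, 2 to 5 and 6 or more Ifng UMIs, and at 37.0, 65.7, 129 and 245 CPM in Tc1 cells. Ccl5 was at 460, 1223, 1337 and 1634 CPM in Tc9 and at 1063, 2602, 3776 and 4150 CPM in Tc1. The step from 0 to 1 UMI, across the threshold, was clear of the counting intervals for Ccl5 in both libraries and for Il12rb2 in Tc9, while for Il12rb2 in Tc1 they overlapped (44.0 to 94.3 CPM at 1 UMI, 30.4 to 44.5 CPM at 0). Above the threshold, Il12rb2 intervals overlapped between 1 and 2 to 5 UMIs in Tc9 and between all neighbouring groups in Tc1. Ccl5 intervals overlapped between 2 to 5 and 6 or more UMIs in Tc1. Tbx21 stepped up at the threshold in Tc9 and then stayed level, at 79.4, 140, 122 and 142 CPM. Il7r ran the other way, at 308, 227, 203 and 191 CPM in Tc9 and at 308, 140, 87.2 and 30.6 CPM in Tc1. Its step from 0 to 1 UMI was clear of the counting intervals in both libraries, but above it the intervals of neighbouring groups overlapped. The last Tc1 value of Il7r was 2 UMIs in 2 of 12 cells (3.71 to 111 CPM). Gzma was at 16.8, 139, 34.8 and 663 CPM in Tc9, from 19, 12, 9 and 4 cells. Tnf was at 59.9, 70.2, 136 and 505 CPM in Tc1, the last from 5 of 12 cells. Cells with more Ifng UMIs were deeper, with medians of 5158, 5239, 5733 and 7127 UMIs in Tc9 and 3293, 3476, 3477 and 5978 in Tc1, and the part of depth in these levels was not tested.

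**Figure D5:**
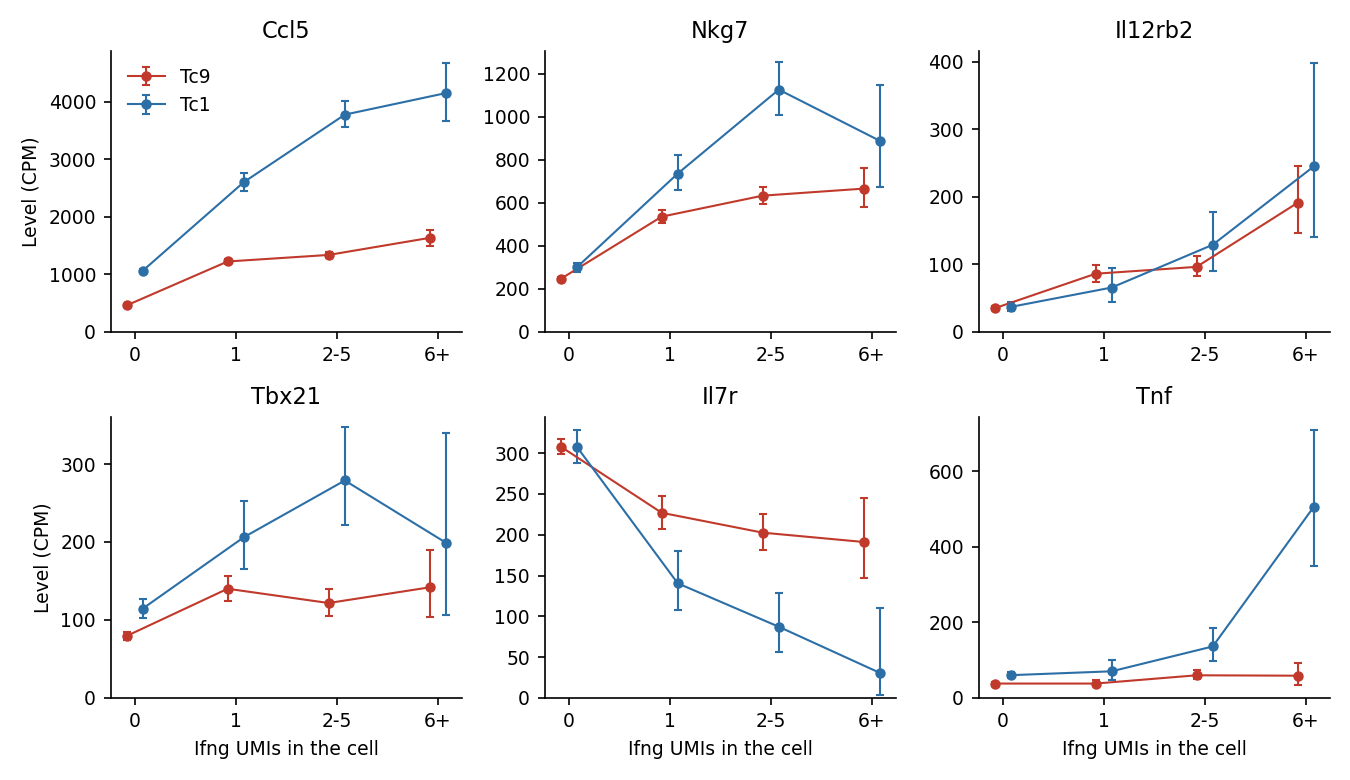
Level (CPM of summed UMIs, 95% Poisson intervals) of 6 genes in cells of the CD4 gate with 0, 1, 2 to 5 and 6 or more Ifng UMIs, Tc9 in red and Tc1 in blue. Ccl5 and Il12rb2 are higher and Il7r lower with more Ifng UMIs in both libraries. For Il7r the intervals of neighbouring groups overlap from 1 Ifng UMI on. Those of Il12rb2 overlap between 1 and 2 to 5 UMIs in Tc9 and between all neighbouring groups in Tc1. Those of Ccl5 overlap between 2 to 5 and 6 or more UMIs in Tc1.

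Over all genes 0.755% were higher and 1.21% lower in Tc9, and 7.55% were higher and 4.89% lower in Tc1. Of the residence and adhesion genes 1 of 15 was higher in Tc9 (median 0.04) and 8 of 16 in Tc1 (0.60), and without cells with a Ccr7 or Lef1 UMI 1 of 16 was higher and 1 lower in Tc1. Of the trafficking receptors 0 of 7 passed 1.5-fold in Tc9, while in Tc1 2 of 6 were higher and 1 lower (0.40). Cxcr6, a receptor of tissue T cells, was at 284 against 248 CPM in Tc9 and 416 against 272 CPM in Tc1. Among NK receptors 0 of 1 was higher in Tc9 and 2 of 2 in Tc1. Of 4 checkpoint genes none was higher in either library, and in Tc1 1 was lower; Tigit reached 50 CPM only in the Ifng cells. Hypoxia genes had 0 of 5 past 1.5-fold in Tc9 and 2 of 8 lower in Tc1 (median -0.25). Of the heat shock and dissociation stress genes 0 of 14 passed 1.5-fold in Tc9 and 3 of 15 were lower in Tc1.

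Between the libraries, Tc9 Ifng cells had lower levels than Tc1 Ifng cells of glycolysis and interferon-gamma response genes. Of 3506 genes 389 were at least 1.5-fold higher in Tc9 (11.1%) and 650 at least 1.5-fold lower (18.5%), together 29.6%. The higher genes were 37.4% of those past 1.5-fold, and 47.2% after centring on the median gene. Much of this was seen in the Ifng=0 cells too, where 326 of 3349 were higher (9.73%) and 442 lower (13.2%), together 22.9%. Markers of other cells were lower too, with the macrophage markers at 133 CPM in Tc9 and 1012 CPM in Tc1 Ifng cells and the dendritic cell markers at 157 and 3719 CPM. Among the genes with lower levels in barcodes without Cd3 than in the Ifng cells, the 10 with the lowest ratios were mainly of the cell cycle: Ccnb2, a cyclin of mitosis, had 6.68 CPM in Tc9 and 60.5 CPM in Tc1 Ifng cells, Ube2c, a ubiquitin enzyme of mitosis, 22.2 and 145 CPM and Pclaf, a replication factor partner, 29.8 and 185 CPM. Hist1h2ab, Cdca3, Rrm2, Ccna2, Cenpf and Hist1h1b were of the same kind. Their Tc1 UMIs came from few cells, 13 for Ccnb2, 12 for Ube2c and 16 for Pclaf. Klrg1, an inhibitory lectin receptor of late effector cells, had 23.2 CPM in Tc9 and 135 CPM in Tc1 Ifng cells (log2 -2.54), and it was found in 3.01% and 17.1% of them at 2000 UMIs. Its ratio in the Ifng=0 cells was -2.22, so the difference was not particular to Ifng cells. Ccnb2, Ube2c, Pclaf and Klrg1 reached 50 CPM only in the Tc1 Ifng cells, so the direction of their level ratios is no result.

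Of 4 cell cycle genes at 50 CPM or more in the Ifng cells of both libraries 3 were lower in Tc9 (median -1.05), and 10 more reached it only in Tc1, so their direction is no result. Without cells with a Mki67 or Top2a UMI the 2 genes left had a median of 0.32. Of 11 interferon-gamma response genes at that level in both 7 were lower (median -0.71), beside 5 of 12 in Ifng=0 cells (-0.48). Psmb9, an immunoproteasome subunit, was at 157 CPM in Tc9 and 302 CPM in Tc1 Ifng cells. Of 6 type I interferon genes 3 were lower (-0.53), beside 4 of 6 in Ifng=0 cells (-0.65), and with 0 macrophage UMIs per cell 0 of 5 were lower or higher (-0.17). Of 11 glycolysis genes 9 were lower (-1.23), beside 8 of 10 in Ifng=0 cells (-1.34). Ldha, lactate dehydrogenase, was at 382 CPM in Tc9 and 896 CPM in Tc1 Ifng cells, and at 1630 CPM in Tc1 barcodes without Cd3. Of 6 cytotoxic genes 2 were lower (-0.32), and 4 more reached 50 CPM only in Tc1 Ifng cells.

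Among the genes higher in Tc9, Il31ra, a receptor chain for the itch cytokine interleukin-31, had 233 CPM in Tc9 and 49.1 CPM in Tc1 Ifng cells, and the costimulatory receptor Icos 402 and 145 CPM. Their log2 ratios were 2.25 and 1.47 in Ifng cells and 2.44 and 1.82 in Ifng=0 cells. In Ifng cells Il31ra reached 50 CPM only in Tc9, so its direction there is no result. Ehbp1, Ski, Arl4c and Zc3h12a were also among the 10 highest, as were 4 ribosomal protein genes, Rps28, Rps29, Rpl38 and Rps21, at log2 ratios of 1.73 to 1.85 in Ifng cells. Of the receptor signal list 7 of 17 were higher, with Nr4a1 at 362 CPM in Tc9 and 160 CPM in Tc1 and Nr4a3 at 171 and 84.4 CPM, both orphan receptors induced by receptor signals, beside 9 of 17 in Ifng=0 cells. Of 9 naive and memory genes 6 were higher in Tc9 Ifng cells (median 0.84) and none lower, beside 4 of 9 lower and none higher in Tc9 Ifng=0 cells (-0.18). Il12rb2 was close in the 2 libraries, at 98.3 CPM in Tc9 and 103 CPM in Tc1 Ifng cells (-0.07, -0.42 to 0.29), while Tbx21 was at 133 and 232 CPM (-0.80) and Cxcr3 at 138 and 239 CPM (-0.79).

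The nearest other cells were CD4 T cells with type 2 cytokines and CD8 T cells with Ifng. Against the 588 Tc9 and 97 Tc1 type 2 cells without Ifng, Ifng cells were 3.13 and 2.87 log2 units higher in Ccl5, 2.37 and 2.54 in Nkg7 and 3.97 and 1.17 in Il12rb2, and at -1.44 and -1.17 in Gata3, a factor of type 2 cells. Against 110 Tc9 and 776 Tc1 CD8 T cells with Ifng, they were at -4.20 and -4.12 in Xcl1, -2.74 and -2.11 in Gzmb and -1.07 and -1.19 in Nkg7, and 1.75 and 3.94 higher in Cd40lg, the ligand by which helper cells license B and dendritic cells. Ifng cells therefore lay above the type 2 cells and below the CD8 T cells in Nkg7 in both libraries. Ccl5 was 0.43 higher than in the CD8 T cells in Tc9 and at -1.17 in Tc1. CD4 T cells with both Ifng and a type 2 cytokine, 104 in Tc9 and 31 in Tc1, were left out of the Ifng cells. Against them the Ifng cells were at 0.73 (0.32 to 1.16) in Tc9 and 0.38 (-0.45 to 1.31) in Tc1 in Il12rb2. Cxcr3 was at 0.89 and 0.75 and Nkg7 at 0.65 and 0.37. Tbx21, at -0.12 (-0.40 to 0.16) and 0.14 (-0.38 to 0.69), did not set the 2 kinds of cells apart, and Stat4 was at 0.14 and -0.12. Ccl5 was at 1.79 in Tc9 and -0.30 in Tc1.

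Of the Ifng cells with a full receptor, 132 of 202 in Tc9 and 27 of 56 in Tc1 had a clone mate among the Ifng=0 cells of the gate. A productive TRB chain was read in 390 of the Tc9 Ifng cells (57.6%) and 97 of the Tc1 Ifng cells (56.1%), and 202 and 56 cells had a full clonotype, in 120 and 44 clonotypes. Clonotypes of at least 3 barcodes, called expanded, held 67.8% (60.9 to 74.2) of the Tc9 Ifng cells and 55.4% (41.5 to 68.7) of the Tc1 Ifng cells, a difference of 12.5 points (-2.53 to 27.7). Among Ifng=0 cells these shares were 66.3% in Tc9 and 39.0% in Tc1. Ifng cells were thus 1.55 points above Ifng=0 cells in Tc9 (-6.35 to 9.07) and 16.3 points in Tc1 (1.25 to 30.8). TRB sequences found in both libraries numbered 2 and occurred in no Ifng cell.

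Of the 156 Tc9 and 38 Tc1 Ifng cells whose clonotype had at least 2 barcodes, 84.6% and 71.1% had a clone mate among the Ifng=0 cells of the gate. A clone mate with Il4, Il5 or Il13 was found for 46.2% in Tc9 and 52.6% in Tc1, and 1 with Foxp3 for 28.8% and 26.3%. A barcode with Cd8a or Cd8b1, which a CD4 clone should not hold, was in the clonotype of 17.9% and 28.9%, which is 28 and 11 cells. Of 37 Tc9 clonotypes with at least 5 gate cells 30 were mixed, 7 had no Ifng cell and none consisted of Ifng cells alone, with a median share of 21.7%. Of 6 such Tc1 clonotypes 5 were mixed and 1 had none.

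The clonotypes printed above show the range. Tc9 clonotype 1 had Ifng in 9 of 38 gate cells (23.7%, 11.4 to 40.2), and 36 of its 87 barcodes carried a type 2 cytokine. Tc9 clonotype 2 had Ifng in 9 of 34 gate cells, and 17 of its 91 barcodes carried Cd8a or Cd8b1. Tc9 clonotype 3 had Ifng in 7 of 10 gate cells (70.0%, 34.8 to 93.3) and a type 2 cytokine in 0 of its 13 barcodes. Tc1 clonotype 1 had Ifng in 8 of 30 gate cells (26.7%, 12.3 to 45.9) and Tc1 clonotype 2 in 4 of 5. The next in order had Ifng in 5 of 21 and 5 of 23 gate cells in Tc9 and in 2 of 3, 2 of 12 and 1 of 1 in Tc1. Clonotypes named for their Ifng cells were picked by that number, so their shares are a description.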

How the data were processed

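Tumour samples labelled as sorted CD4 T cells were profiled by 10x 5' single-cell RNA and TCR sequencing. The RNA values are UMI counts per gene and barcode, deposited by the authors as filtered matrices made with Cell Ranger 7.0.0 against mm10 (GRCm38), per the submitters' processing notes and the file headers, and the receptor files are the authors' deposited contigs with counts of reads and UMIs. Cells were gated on raw UMIs, and Ifng cells and Ifng=0 cells were compared within each library. UMIs were summed per set of cells and divided by the set's total (CPM). A gene was counted at 50 CPM or more in 1 of the sets, and as higher or lower at a 1.5-fold ratio, and lists were described over genes at 50 CPM or more in both sets. A gene at 0 entered ratios at a floor of 3 counts. Ratios have exact conditional intervals, levels Poisson intervals, shares Clopper-Pearson intervals and differences of shares Newcombe intervals, all at 95%. Genes of the gate and TCR and immunoglobulin segment genes were not counted. Shares of cells with a UMI were taken after drawing each cell down to 2000 UMIs. No doublet caller was run, and doublets were treated by alternatives without barcodes with more than 1 productive TRB chain and without the 5% of barcodes with the most UMIs. Receptor files were joined to the RNA by barcode.

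The members, the 33 gene lists (408 genes, 2 of them not in the files) and the rules were chosen with earlier results of these data known. Named genes were the 12 highest and 12 lowest in both libraries, the 10 highest and 10 lowest between libraries (among genes lower in barcodes without Cd3), the 6 that differed most, up to 4 per list and 16 in every case. Other genes named from the lists were chosen after their values were seen. Python 3.11.15 with numpy 2.4.6, scipy 1.17.1, pandas 2.3.3 and matplotlib 3.10.9 was used. The ratios were tested on simulated data. Some genes are not reported here. Each group has a single library, so no test was run across genes.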

Additional observations from a re-analysis of the deposited data

Results flagged for a closer look

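For 3 genes the ratio of Ifng cells over Ifng=0 cells was at least 1.5-fold in opposite directions in the 2 libraries, and the difference was not tested, since each group has 1 library. Cd74 was at -1.67 in Tc9 and 1.01 in Tc1, a difference of -2.68 log2 units. Areg was at -1.97 in Tc9 and 0.60 in Tc1, a difference of -2.57. A single Tc1 Ifng cell held 48.6% of the Cd74 UMIs and a single Tc1 Ifng cell 76.2% of the Areg UMIs, and without that cell the Tc1 ratios were 0.09 and -1.46. Crim1 was at 0.71 in Tc9 (58.2 CPM in Ifng cells and 35.6 CPM in Ifng=0 cells) and -0.69 in Tc1 (36.5 and 58.9 CPM), a difference of 1.40, and its richest Tc1 Ifng cell held 10.3% of the UMIs.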

How the results depend on the processing

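The Ifng share (Tc9 minus Tc1, 4.11 points) was -0.743 with cells thinned to 2000 UMIs, -1.34 without cells with a Ccr7 or Lef1 UMI and 0.776 with at least 2 Cd4 UMIs. The expanded share (Tc9 minus Tc1 in Ifng cells, 12.5 points) lay between 6.99 and 18.2 points in the alternatives run. Counts of genes moved as follows. Tc1 higher (264) was 433 with 0 macrophage UMIs, 397 with at least 2 Cd4 UMIs, 482 in barcodes with a TRB chain, 667 at 20 CPM, 123 at 100 CPM and 72 at 2-fold, and Tc1 lower (171) was 337, 567, 79 and 70 at the first and the last 3 of these and 312 with at least 2 Ifng UMIs. Tc9 higher (23) was 70 at 20 CPM, 7 at 100 CPM, 7 at 2-fold, 36 in barcodes with a TRB chain, 36 with at least 2 Ifng UMIs and 44 after thinning, and Tc9 lower (37) was 75, 16 and 9 at 20 CPM, 100 CPM and 2-fold. Tc9 over Tc1 was 652, 240 and 87 higher (389) and 1468, 306 and 204 lower (650) at these 3. Fewer genes or a larger fold sets the counts at 100 CPM and 2-fold, and for the rest the cause was not tested. Centring on the median gene moved the share of higher genes among those counted to 48.0% (60.7%) in Tc1, and in Tc9 over Tc1 to 47.2% (37.4%).

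Of 2496 values of 73 named genes, 2117 stayed within their interval, 360 moved and 19 turned. In Tc1 these were Areg (-3.09 with 0 macrophage UMIs, -0.74 with at least 2 Ifng UMIs, -1.62 without clonotypes with a CD8 barcode, -1.46 without its richest cell), Ccl3 (-0.11 weighted by depth, and -0.16, -0.12 and -0.10 under the last 3), Lag3 (-0.37, -0.52 and -0.53 under the same 3), Ccl4 (-0.12), Cd7 (-0.041) and Cd74 (-0.53) with 0 macrophage UMIs, Cd74 without class II-rich cells (-0.084) and Gzma without cells with a Ccr7 or Lef1 UMI (-0.49). Between libraries Ccl4 was 0.057 with 0 macrophage UMIs and 0.024 with at least 2 Ifng UMIs, and Prf1 0.21 without barcodes with more than 1 TRB chain. The alternatives on class II, cell cycle and naive genes, CD8 clonotypes and the richest cell were chosen after seeing the data. Tc1 Ifng cells are few, 173, so ratios of low genes there rest on few cells. No paired analysis was possible because each group has 1 library.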
